A study of Mus musculus with 6 samples.

Results

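The genes described here are those that write, read and erase methylation of cytosine in DNA. They were taken by symbol from the deposited expression table, as *Dnmt1*, *Dnmt3a*, *Dnmt3b*, *Uhrf1*, *Mbd2*, *Tet1*, *Tet2*, *Tet3* and *Tdg*, and all 9 were found among the 41255 genes listed. Their mRNA was measured by RNA sequencing in Ba/F3, a line of mouse lymphoid cells whose growth needs interleukin-3. Human RPL10 cDNA, a protein of the large ribosomal subunit, had been brought into the cells by retrovirus either in the normal form (WT) or in a form that carries serine, not arginine, as residue 98 (R98S), a change found in T cell leukaemia. An shRNA against the cells' own *Rpl10* was present in both groups. Each group had 3 libraries, 1 from each monoclonal culture, namely clones 28, 29 and 36 for WT and clones 11, 13 and 35 for R98S. Every culture had been kept in 100 µg/ml cycloheximide, which stalls elongating ribosomes, for 5 min before lysis. Since each clone descends from a single cell, differences between clones and differences between genotypes are separated only by the spread of 3 clones a group, and all p-values measure that spread.

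In mammals, methyl groups sit mostly on the cytosine of CpG dinucleotides. DNMT3A and DNMT3B set new marks, whereas DNMT1 copies existing marks onto the daughter strand after replication and is brought there by UHRF1, which binds hemimethylated DNA. MBD2 binds methylated CpG and recruits the NuRD repressor complex. TET1, TET2 and TET3 oxidise 5-methylcytosine to 5-hydroxymethylcytosine and further, and TDG excises the most oxidised forms, so that base excision repair can restore an unmethylated cytosine. *DNMT3A* and *TET2* are both known as recurrently mutated genes in blood cancers.

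The upstream sequences of 4 of these genes are shown as a description. *Dnmt3a* and *Tet2* are the members whose mRNA differed between the genotypes, and the first set marks their CpG dinucleotides in capitals, the substrate of the enzymes themselves. *Dnmt3a* is shown at 2 start sites, since GENCODE gives transcripts with a coding length of 2724 bases from the upstream promoter and of 2067 bases from a promoter inside the gene, and counts per gene do not separate them. All sequences are the 250 bases before a RefSeq start site in GRCm38.p6, written 5′ to 3′ on the strand of the gene.
Dnmt3a, upstream promoter, chr12:3806730-3806979, plus strand: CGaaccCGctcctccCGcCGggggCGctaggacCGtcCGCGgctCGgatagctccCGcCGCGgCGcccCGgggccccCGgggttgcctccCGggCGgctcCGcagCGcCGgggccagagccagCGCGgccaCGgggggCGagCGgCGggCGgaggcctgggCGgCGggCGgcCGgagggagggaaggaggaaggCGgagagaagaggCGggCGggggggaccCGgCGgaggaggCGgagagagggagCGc
Dnmt3a, internal promoter, chr12:3891494-3891743, plus strand: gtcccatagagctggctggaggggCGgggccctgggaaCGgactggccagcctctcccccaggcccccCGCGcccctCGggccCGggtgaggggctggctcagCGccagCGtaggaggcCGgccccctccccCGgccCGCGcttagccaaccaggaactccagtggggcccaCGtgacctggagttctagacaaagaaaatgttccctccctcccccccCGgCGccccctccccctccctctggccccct
Tet2, chr3:133544391-133544640, minus strand: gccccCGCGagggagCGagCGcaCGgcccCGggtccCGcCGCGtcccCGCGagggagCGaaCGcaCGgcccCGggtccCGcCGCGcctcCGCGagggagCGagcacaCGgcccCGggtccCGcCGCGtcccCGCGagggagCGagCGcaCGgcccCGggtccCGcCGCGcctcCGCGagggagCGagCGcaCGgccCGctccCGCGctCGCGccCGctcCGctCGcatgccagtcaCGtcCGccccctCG

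RefSeq windows of 300 bases, from 250 before to 50 after a start site, were matched for 8 of the 9 genes, *Mbd2* being the one without an entry. The upstream *Dnmt3a* window held 46 CpG and the *Tet2* window 57, against a median of 7 over 32851 windows of 27025 genes. Fewer CpG than in these were found in 98.4% and 99.8% of all windows. The internal *Dnmt3a* window held 18, and 70.3% of windows held fewer. The windows of *Dnmt3b*, *Tdg*, *Tet3* and *Tet1* held 30, 26, 22 and 17 CpG. Those of *Dnmt1* held 33, 12 and 2, and those of *Uhrf1* held 33 and 12. Fewer than 33 were found in 91.4% of all windows.

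The second set is shown because *Dnmt1* and *Uhrf1* are known to be transcribed in S phase and are set beside genes of S phase below. Both were highest, among the WT clones, in clone 36. That held as well for *Dnmt3a*, whose windows held none of the letters searched, and for 4205 of 11550 genes tested. Capitals mark letters of the kind bound by E2F factors, regulators of S phase genes, searched on both strands as TTTCCCGC, TTTCGCGC, TTTGCCGC or TTTGGCGC.
Dnmt1, chr9:20952624-20952873, minus strand: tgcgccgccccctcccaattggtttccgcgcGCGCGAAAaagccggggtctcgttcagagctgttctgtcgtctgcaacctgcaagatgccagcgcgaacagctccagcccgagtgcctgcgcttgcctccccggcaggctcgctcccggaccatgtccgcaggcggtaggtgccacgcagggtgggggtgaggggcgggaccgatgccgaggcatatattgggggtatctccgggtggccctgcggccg
Uhrf1, chr17:56304063-56304312, plus strand: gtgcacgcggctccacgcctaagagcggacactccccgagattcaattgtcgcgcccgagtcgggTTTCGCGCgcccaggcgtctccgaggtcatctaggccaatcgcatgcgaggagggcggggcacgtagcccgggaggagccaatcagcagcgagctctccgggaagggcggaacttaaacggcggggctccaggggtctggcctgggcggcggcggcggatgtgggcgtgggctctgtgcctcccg

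The match in *Dnmt1* began 219 bases before the start and reads TTTCGCGC on the opposite strand, and a second, TTTGGCGC, began 33 bases after the start. The match in *Uhrf1* began 185 bases before the start. The windows shown for *Dnmt1* and *Uhrf1* were chosen for their match. No other window of the 8 genes held these letters, which occurred in 2.26% of all windows. Such a match is a description of the sequence and was not tested as a binding site.

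The libraries held 21786776 to 24204991 reads assigned to genes, and 18890 to 19958 genes had at least 1 read. Values are read counts after division by the size factor of their library, called normalized read counts below. A count of 3 reads, the limit that a count of 0 allows, corresponded to 2.78 to 3.22 normalized reads, which covers counting error only. *Rpl10* ranged from 1900.45 to 3156 in WT and from 1883 to 3028 in R98S clones (limma, adjusted p = 0.871). Whether reads of the human cDNA were counted with it is not given in the sources used here. Lymphoid identity was only partly visible in the RNA. Calls in the marker lists stand beside a share of 23.9% of all genes tested at an adjusted p below 0.1. In R98S, 10.7% of all genes tested were called higher and 13.1% lower. Of 9 B cell precursor markers, 4 (*Pax5*, *Vpreb1*, *Igll1* and *Rag1*) had at most 3 reads in every library. The summed level of the list was 10155 to 15417 in WT and 5263 to 7296 in R98S clones, most of it *Ptprc*, the pan-leukocyte phosphatase CD45, which fell from 11217 ± 2636 to 4471 ± 1148 (SD, n = 3 each; limma, adjusted p = 0.00894). The list did not move one way, since *Cd79b*, a signalling chain of the B cell receptor, rose from 258 ± 128 to 572 ± 166 (adjusted p = 0.0617, lost without R98S clone 11, R98S clone 13, WT clone 29 or WT clone 36, at 0.113 to 0.177, and without the intensity trend, at 0.106), and *Cd79a*, its partner, was at 1076 ± 104 and 1248 ± 255 (adjusted p = 0.449). Of 8 mast cell and basophil markers, 5 passed the filter on low values and 3 had at most 3 reads in every library, among them *Kit* and *Fcer1a*. The sum of that list was 25269 to 29821 in WT and 13995 to 17555 in R98S clones, most of it the transcription factor *Gata2*. *Gata2* was the one member that passed the threshold (limma, adjusted p = 0.00666). The other tested members, named here after their values were seen, overlapped between the genotypes and went both ways. Their log2 differences were 1.43 (*Cpa3*), 0.44 (*Hdc*), −0.57 (*Ms4a2*) and −0.61 (*Mcpt8*), with adjusted p from 0.372 to 0.801. *Hdc* was called higher without WT clone 29 and *Mcpt8* without R98S clone 13. The 8 T cell markers summed to 56.3 to 109 in WT and 154 to 183 in R98S clones. Only 2 of them passed the filter, *Cd3d* and *Lck*, of the T cell receptor complex and its kinase. Both rose (adjusted p = 0.0112 and 0.0355, *Lck* not without WT clone 28 at 0.121). Other chains of that complex, named here after their values were seen, went the other way at few reads. *Cd3g* had 3.07, 3.22 and 43.03 normalized reads in WT and 0.94, 1.02 and 1.85 in R98S clones. *Cd3e* had 1.02, 2.15 and 3.00 in WT and 0, 0 and 0.93 in R98S clones. Of the 3 interleukin-3 receptor chains, *Csf2rb2* and *Csf2rb* rose (adjusted p = 0.0178 and 0.0509, *Csf2rb* not without R98S clone 11, WT clone 28 or WT clone 36, at 0.102 to 0.195). The third chain, *Il3ra*, was at 794 ± 112 in WT and 698 ± 67.9 in R98S clones (SD, n = 3 each; limma, log2 difference −0.18, adjusted p = 0.432). The 8 myeloid and erythroid markers summed to 1945 to 3469 in WT and 1981 to 3606 in R98S clones, most of it *Gata1*. The 2 tested members, *Gata1* and *Klf1*, were not called (limma, adjusted p = 0.792 and 0.508). *Itgam* and *Mpo*, named here after their values were seen, failed the filter, and every R98S clone lay below every WT clone. *Itgam* was at 13.1 ± 1.89 in WT and 1.36 ± 2.36 in R98S clones, and *Mpo* at 6.55 ± 5.24 and 0.34 ± 0.59 (SD, n = 3 each). Both were called lower without the filter. The part of these markers in the results below was not tested.

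Of the 9 genes, 8 passed the filter of a mean of at least 10 normalized reads and were tested with limma across 11550 genes. *Dnmt3a*, a de novo methyltransferase, was higher and *Tet2*, a 5-methylcytosine dioxygenase, was lower in the R98S clones at an adjusted p below 0.1, the threshold used throughout. The background was wide, since 23.9% of all genes tested passed the same threshold, 10.7% as higher and 13.1% as lower in R98S. A count of 2 among 8 was therefore near the share among all genes. The median log2 fold change was −0.025 over the 8 and −0.011 over all genes tested. Values of the genotypes did not overlap for 3 of the 8, *Dnmt3a*, *Tet2* and *Mbd2*, and for 37.3% of all genes tested. In bulk RNA of a culture, fewer cells expressing a gene and less of its RNA per cell cannot be told apart.

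**Figure D1:**
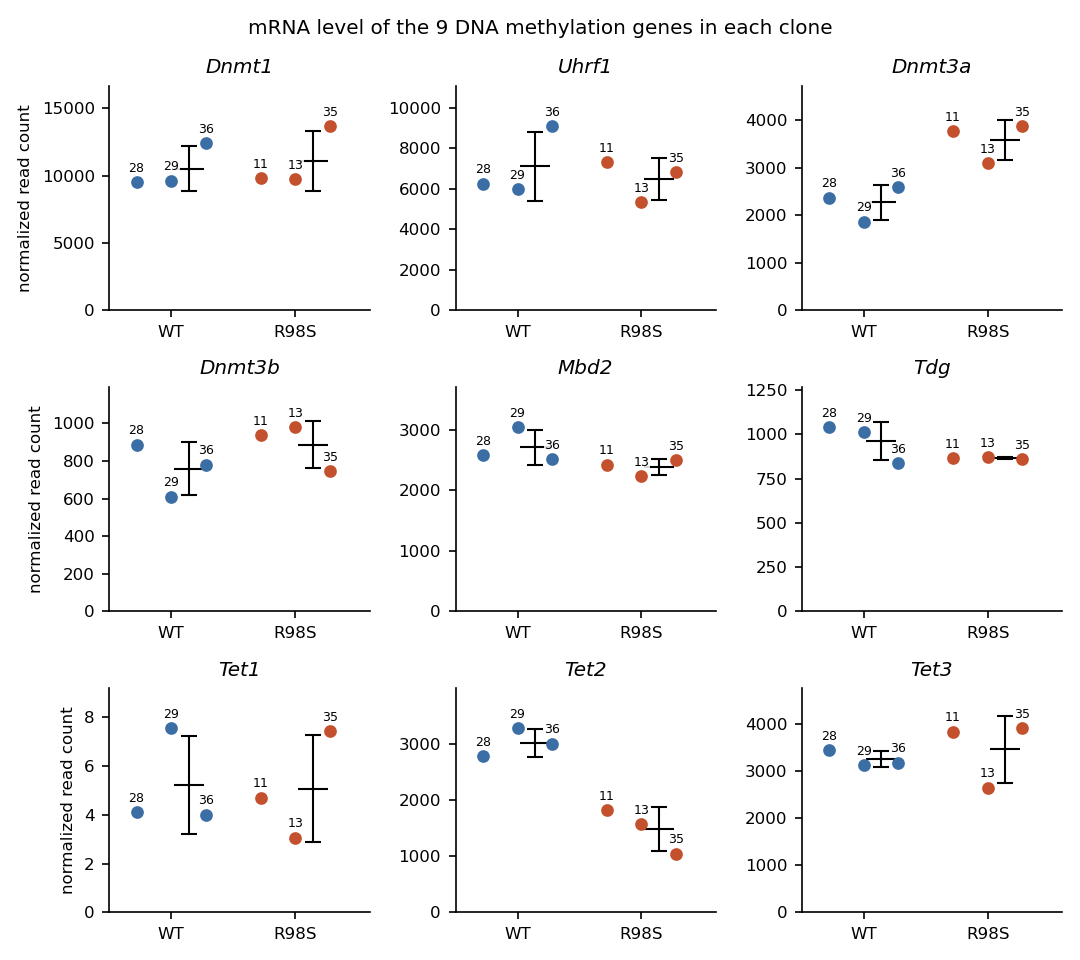
Normalized read count of each of the 9 genes (vertical axes, each from 0) in the 3 WT (blue) and 3 R98S (orange) clones, with the clone number above each point and the mean ± SD of the 3 clones in black. All R98S points of *Dnmt3a* lie above all WT points, all R98S points of *Tet2* lie below them, and *Tet1* does not reach 8 normalized reads.

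*Dnmt3a* (chr12:3806007-3914443, plus strand, GRCm38) had 2369, 1868 and 2585 normalized reads in WT clones 28, 29 and 36. In R98S clones 11, 13 and 35 it had 3771, 3089 and 3864. Every R98S clone lay above every WT clone, the gap being between R98S clone 13 and WT clone 36. The mean rose from 2274 ± 368 to 3575 ± 423 (SD, n = 3 each), a ratio of 1.57. On the scale of log2(normalized read count + 1) the difference was 0.66 (SE 0.15, 95% interval 0.31 to 1.003) with an adjusted p of 0.0254 from limma. When single clones were left out, the smallest difference was 0.52 (WT clone 29 left out) and the largest 0.76 (R98S clone 13 left out). The 30 tested genes nearest to *Dnmt3a* on the chromosome had a median of −0.048 on the same scale, and 5 of them passed the threshold. Exons of *Dnmt3a* share 133 bases with *Dnmt3aos* on the opposite strand, which was listed at 0 in all libraries.

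*Dnmt3b* (chr2:153649450-153687730, plus strand), the other de novo enzyme, had 888, 610 and 781 normalized reads in the WT clones in the same order and 938, 979 and 746 in the R98S clones. The groups overlapped, with R98S clone 35 below 2 of the WT clones. Means were 759.61 ± 140 and 888 ± 125 (SD, n = 3 each), and the log2 difference of 0.23 (SE 0.18, 95% interval −0.17 to 0.63) did not pass the threshold (limma, adjusted p = 0.402). The ratio of *Dnmt3a* to *Dnmt3b* within a library, which does not depend on scaling, was 2.67, 3.06 and 3.31 in WT and 4.02, 3.16 and 5.18 in R98S clones. R98S clone 13 fell between the WT clones 29 and 36, and the difference of 0.43 in the mean log2 ratio had a two-sided p of 0.2 in an exact permutation test, for which 3 against 3 clones allow no p below 0.1. Thus a rise of *Dnmt3a* relative to *Dnmt3b* was not separable from the spread between clones.

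*Dnmt3l* encodes the catalytically inactive cofactor of both de novo enzymes. Of 5 listed de novo cofactors 4 were tested, and *Dnmt3l* was the 1 that passed the threshold. That count was near the share of 23.9% among all genes tested. *Dnmt3l* had 260.1, 245 and 213 normalized reads in WT and 63.8, 176 and 61.1 in R98S clones. R98S clone 13 stood closer to the WT clones than the other R98S clones did, though still below them. The mean fell from 239 ± 24.0 to 100.1 ± 65.3 (SD, n = 3 each; log2 difference −1.43, SE 0.39, limma adjusted p = 0.0439). The call was lost without R98S clone 11 (adjusted p = 0.140), R98S clone 35 (0.124), WT clone 28 (0.126) or WT clone 29 (0.111). *Dnmt3a* therefore rose and its cofactor *Dnmt3l* fell in the same clones, and the second change rested on more of the single clones than the first.

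*Tet2* (chr3:133463679-133545139, minus strand) had 2775, 3273 and 3001 normalized reads in WT clones 28, 29 and 36. The R98S clones 11, 13 and 35 had 1816, 1571 and 1047. All R98S clones lay below all WT clones, and clone 35 was the lowest. The mean fell from 3017 ± 249 to 1478 ± 393 (SD, n = 3 each), so that WT clones held 2.04 times as much. The log2 difference was −1.06 (SE 0.20, 95% interval −1.51 to −0.61; limma, adjusted p = 0.0130). It was −0.83 without R98S clone 35 and −1.23 without R98S clone 11. The median log2 fold change of the 30 nearest tested genes was −0.15, with 9 of them past the threshold, and *Tet2* stayed called at −0.88 (adjusted p = 0.0111) once such a regional median was subtracted (regional shift removed, below). Exons of *Tet2* share 43 bases with *Gm42567* on the opposite strand, which was not analysed here.

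*Tet3* (chr6:83362373-83459084, minus strand), the dioxygenase best known from the zygote, had 3450, 3133 and 3184 normalized reads in WT and 3840.15, 2646 and 3908 in R98S clones. R98S clone 13 lay below and the other R98S clones above all WT clones. Means were 3256 ± 170 and 3465 ± 710 (SD, n = 3 each), with a log2 difference of 0.07 (SE 0.16, 95% interval −0.29 to 0.43; limma, adjusted p = 0.798). *Tet1* (chr10:62804570-62908996, minus strand), prominent in embryonic stem cells, had 4, 7 and 4 reads in WT and 5, 3 and 8 reads in R98S clones. These counts are near the limit of detection, and *Tet1* failed the filter. When all 25345 genes with a read were fitted, *Tet1* had an adjusted p of 0.991.

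The ratio of *Tet2* to *Tet3* within a library was 0.804, 1.04 and 0.942 in WT clones and 0.473, 0.594 and 0.268 in R98S clones. *Tet2* and *Tet3* reads were thus about equal in WT, whereas every R98S clone had fewer *Tet2* than *Tet3* reads, without regard to gene length. The mean ratio went from 0.931 ± 0.121 to 0.445 ± 0.165 (SD, n = 3 each), a difference of −1.13 in mean log2 ratio. An exact two-sided permutation test gave p = 0.1, the smallest value that 20 assignments of 6 libraries allow.

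**Figure D2:**
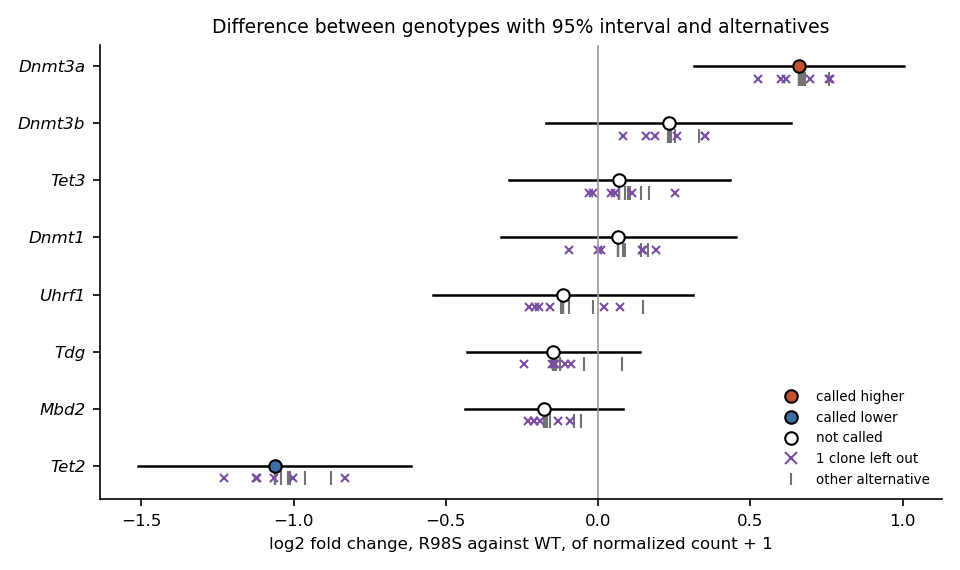
Difference between R98S and WT for the 8 tested genes, as log2 fold change of normalized read count + 1 (horizontal axis), with 95% interval from limma; crosses are fits with 1 clone left out and ticks the other alternatives. *Dnmt3a* stays between 0.52 and 0.76 and *Tet2* between −1.23 and −0.83, while the intervals of the other 6 genes span 0.

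*Dnmt1* (chr9:20907209-20959888, minus strand), the maintenance methyltransferase, was the most abundant of the genes by read count. It had 9510.1, 9639.55 and 12430 normalized reads in WT and 9802, 9757 and 13659 in R98S clones. One clone of each genotype, WT 36 and R98S 35, stood above the other clones, and the groups overlapped. Means were 10526 ± 1649 and 11073 ± 2240.06 (SD, n = 3 each), with a log2 difference of 0.07 (SE 0.17, 95% interval −0.32 to 0.45; limma, adjusted p = 0.819).

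*Uhrf1* (chr17:56303321-56323486, plus strand), whose product recruits DNMT1, had 6256, 5990.1 and 9082 normalized reads in WT and 7321, 5339 and 6832 in R98S clones. WT clone 36 was the highest of all and R98S clone 13 the lowest. Means were 7109 ± 1714 and 6497 ± 1033 (SD, n = 3 each), with a log2 difference of −0.12 (SE 0.19, 95% interval −0.54 to 0.31; limma, adjusted p = 0.706). The ratio of *Uhrf1* to *Dnmt1* was 0.658, 0.621 and 0.731 in WT and 0.747, 0.547 and 0.5002 in R98S clones. The difference of −0.18 in mean log2 ratio was within the spread (exact two-sided permutation test, p = 0.4).

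Both maintenance genes are known to be transcribed in S phase, and their position among the clones was compared with 19 genes of S phase and proliferation. For 19 of these 19 genes WT clone 36 was the highest of the WT clones, as it was for *Dnmt1*, *Uhrf1* and *Dnmt3a*, and as it was for 4205 of all 11550 genes tested. The summed level of the list was 121618 and 126814 in WT clones 28 and 29, 175491 in WT clone 36, and 138752 to 144818 in the R98S clones. Of the 19 genes, 4 rose in R98S (*Mcm6*, *Ccna2*, *Mcm3* and *Ccne2*, log2 differences 0.49, 0.62, 0.38 and 0.76, limma adjusted p = 0.0431, 0.0440, 0.0513 and 0.0968), and none passed the threshold as lower, against the 23.9% of all genes called. The median of the list was 0.10. Values of the genotypes did not overlap for 3 genes that were higher and 3 that were lower in R98S, against 37.3% of all genes tested. The lower 3 were *Rrm2*, *Cdk1* and *Ccnb1*, named here after their values were seen (log2 differences −0.53, −0.30 and −0.21, adjusted p = 0.114, 0.165 and 0.252). The count of 4 higher genes went to 0 without R98S clone 11, WT clone 28 or WT clone 29. It was 3 without R98S clone 35, without the filter or without the trend, and 6 without R98S clone 13 or WT clone 36. *Rrm2*, a subunit of ribonucleotide reductase, was called lower without WT clone 29, with DESeq2 and with the regional shift removed. Without WT clone 36, *Dnmt3a* differed by 0.76 (adjusted p = 0.0264) and *Tet2* by −1.06 (adjusted p = 0.0306), while *Uhrf1* turned to 0.07. In that fit both remaining WT clones have lower S phase sums than every R98S clone, and the part of proliferation in the level of *Dnmt3a* was not tested.

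**Figure D3:**
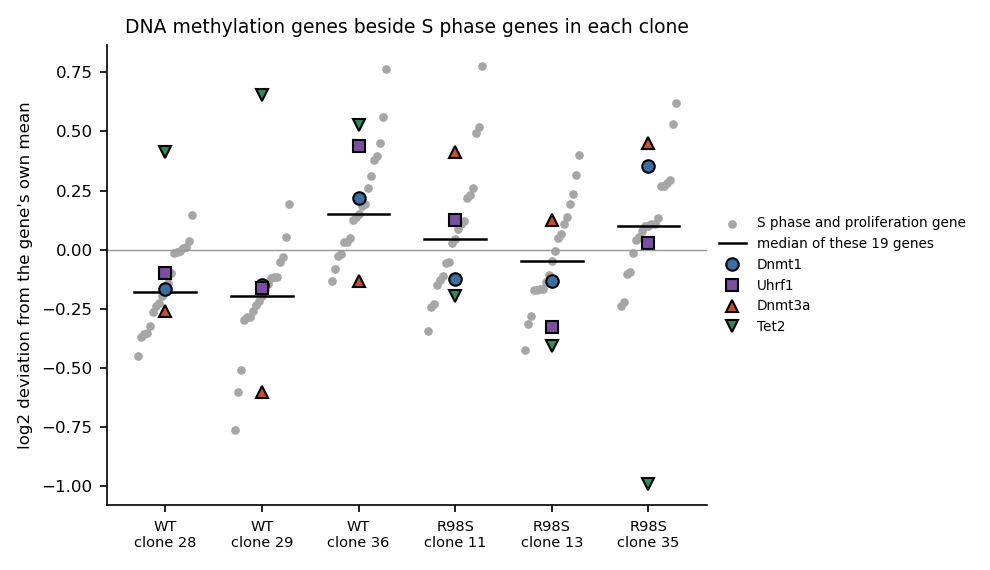
Log2 deviation of each gene from its own mean over the 6 clones (vertical axis), by clone, for the 19 genes of S phase and proliferation (grey, median as a line) and for *Dnmt1*, *Uhrf1*, *Dnmt3a* and *Tet2*. The median of the S phase genes is −0.18 and −0.20 in WT clones 28 and 29 and 0.15 in WT clone 36, where *Dnmt1* and *Uhrf1* lie above their means too, whereas *Tet2* separates the genotypes in each clone.

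*Mbd2* (chr18:70568189-70626131, plus strand), the methyl-CpG reader, had 2573, 3036 and 2509 normalized reads in WT and 2422, 2235 and 2496 in R98S clones. All R98S clones lay below all WT clones, but the highest R98S and the lowest WT value nearly touched. Means were 2706 ± 287 and 2385 ± 135 (SD, n = 3 each), and the log2 difference of −0.18 (SE 0.11, 95% interval −0.44 to 0.08) did not pass the threshold (limma, adjusted p = 0.313).

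*Tdg* (chr10:82629828-82650799, plus strand), the glycosylase that acts after the TET enzymes, had 1038, 1010.2 and 838 normalized reads in WT and 864, 871 and 859 in R98S clones. WT clone 36 was lower than all R98S clones, which were almost equal to each other. Means were 962 ± 109 and 865 ± 5.58 (SD, n = 3 each), with a log2 difference of −0.15 (SE 0.12, 95% interval −0.43 to 0.14; limma, adjusted p = 0.4498). Exons of *Tdg* share 367 bases with *Glt8d2* on the opposite strand, which had a mean of 38.7 normalized reads.

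**Figure D4:**
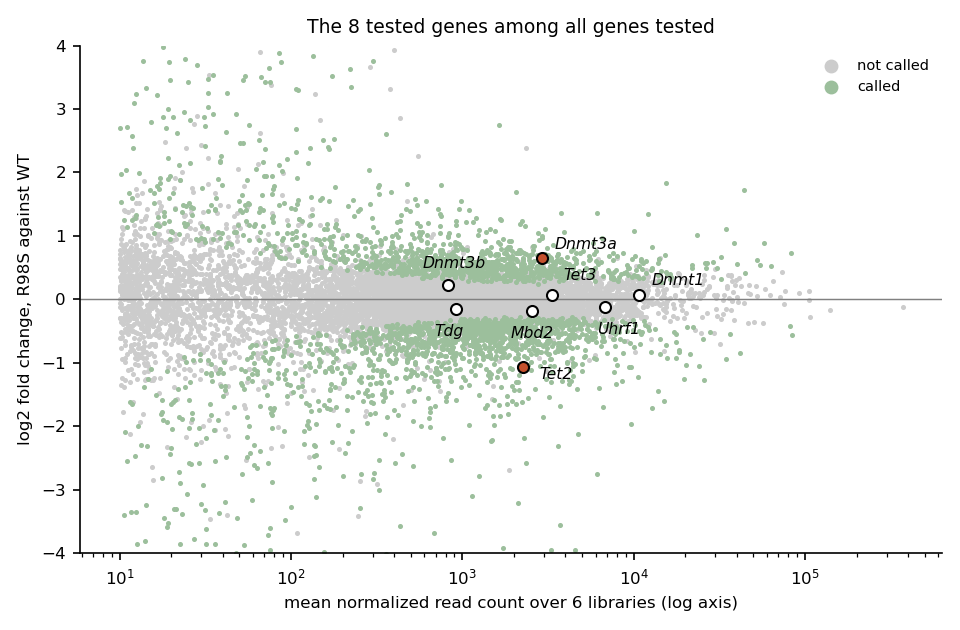
Log2 fold change of R98S against WT (vertical axis, cut at 4, with 93 genes beyond) against the mean normalized read count over 6 libraries (log axis) for the 11550 genes tested, with called genes in green and the 8 tested DNA methylation genes as large circles, filled where called. *Dnmt3a* and *Tet2* lie among many other called genes of like abundance, and the other 6 lie in the grey band.

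Divided by the length of all exons of a gene, the order of mRNA levels in WT clones was *Uhrf1*, *Dnmt1*, *Mbd2*, *Tet3*, *Tdg*, *Tet2*, *Dnmt3b*, *Dnmt3a* and *Tet1*. In normalized reads per kilobase the means were 1669 ± 402 for *Uhrf1*, 1427 ± 224 for *Dnmt1* and 842 ± 89.4 for *Mbd2* (SD, n = 3). The next 5 genes, from *Tet3* at 195 ± 10.2 to *Dnmt3a* at 137 ± 22.1, overlapped each with its neighbour, and *Tet1* was at 0.337 ± 0.130. Per length, each WT clone thus held more mRNA of the maintenance genes than of any de novo or eraser gene.

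In the R98S clones *Dnmt3a* moved up to the fourth place, at 215 ± 25.4 normalized reads per kilobase, and *Tet2* down to the place before *Tet1*, at 87.6 ± 23.3 (SD, n = 3 each). *Dnmt3a* overlapped with *Tet3* (208 ± 42.5), its next neighbour, and *Tet2* lay below *Tdg* (161 ± 1.04) in every R98S clone. The places between depend on the length used. With the longest coding transcript in place of all exons, *Tet2* preceded *Tdg* and *Dnmt3a* preceded *Dnmt3b* in WT, while *Dnmt1* preceded *Uhrf1* and *Tet3* preceded *Dnmt3a* in R98S.

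Partners of these proteins were taken from lists by function. Of 8 partners of maintenance methylation, 2 rose and none passed the threshold as lower, with a median log2 difference of 0.22. That count was near the share of 23.9% among all genes tested. Values of the genotypes did not overlap for 2 partners that were higher and 1 that was lower, against 37.3% of all genes tested. The lower gene was *Zbtb24*, named here after its values were seen (log2 difference −0.35, limma adjusted p = 0.153). *Cdca7* and *Hells* encode the subunits of a nucleosome remodeller that is needed for methylation of heterochromatin and is mutated in ICF syndrome. *Cdca7* rose from 3164 ± 179 to 4650.4 ± 326 normalized reads (SD, n = 3 each; log2 difference 0.55, SE 0.10, limma adjusted p = 0.0131), with every R98S clone above every WT clone. *Hells* rose from 6565 ± 1063 to 8875 ± 1048 (0.44, SE 0.15, adjusted p = 0.0782), with overlap of the groups. WT clone 36 was the highest WT clone for 7 of these 8 partners, as it was for 4205 of all 11550 genes tested. The call of *Hells* was lost without R98S clone 11 (adjusted p = 0.208), R98S clone 35 (0.188), WT clone 28 (0.225) or WT clone 29 (0.232), and without the filter (0.111) or the trend (0.132). The count was 1 in those fits, 3 without R98S clone 13 and 4 without WT clone 36 or with the regional shift removed.

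Of 12 genes listed as other readers of methylated or unmethylated CpG, 2 rose and 1 fell, with a median of −0.10. That count was near the share of 23.9% among all genes tested. *Cxxc1*, which binds unmethylated CpG and targets the SETD1 histone methyltransferases, had 1419, 1387 and 1466 normalized reads in WT and 3412, 2478 and 3770.04 in R98S clones. No R98S clone came near the WT range, and the log2 difference was 1.15 (SE 0.16, limma adjusted p = 0.00433). *Kdm2b*, a further CXXC protein that brings a variant Polycomb complex to CpG islands, rose from 937 ± 45.7 to 1385 ± 57.8 (SD, n = 3 each; 0.56, SE 0.11, adjusted p = 0.0136). *Zbtb38*, a zinc finger protein that binds methylated CpG, fell from 3664 ± 216 to 2089.8 ± 490.19 (−0.83, SE 0.16, adjusted p = 0.0158). All of these 3 calls were kept under each alternative tried, while the count of lower genes went from 1 to 4 with the regional shift removed.

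The 13 listed subunits of NuRD complexes include *Mbd3*, which is also among the 12 readers above. Of the 13, *Chd4*, the remodelling ATPase, rose by 0.30 (SE 0.09, limma adjusted p = 0.0693) and *Gatad2b* fell by 0.36 (SE 0.12, adjusted p = 0.0717), on the log2 scale. These were the 2 calls among the 13, against 23.9% of all genes tested. The median was 0.07, and neither call was kept without R98S clone 11, R98S clone 35, WT clone 28 or WT clone 29, where adjusted p ranged from 0.137 to 0.232 for *Chd4* and from 0.144 to 0.237 for *Gatad2b*. *Chd4* was also lost without WT clone 36 (adjusted p = 0.108), without the filter (0.158) and without the trend (0.106). *Gatad2b* was also lost without the filter (0.144), with scaling to the same upper quartile (0.143) and with the regional shift removed (−0.18, adjusted p = 0.239).

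Of 17 partners of demethylation and base excision repair, 15 were tested, 4 rose and 2 fell, with a median of 0.05. Among all genes tested, 10.7% were called higher and 13.1% lower. *Nthl1*, a glycosylase for oxidised bases, had 98.3, 113 and 140.1 normalized reads in WT and 267, 241 and 198 in R98S clones. Every R98S clone was above every WT clone (log2 difference 1.01, SE 0.21, limma adjusted p = 0.0193). *Apex1*, the endonuclease that cuts the abasic site left by a glycosylase, had 625, 542 and 462 in WT and 1273, 931 and 810.4 in R98S clones. These also did not overlap (0.87, SE 0.19, adjusted p = 0.0239). *Ung*, the uracil glycosylase, rose by 0.60 (SE 0.16, adjusted p = 0.0449), and *Lig3*, a DNA ligase, by 0.38 (SE 0.11, adjusted p = 0.0533). Those that fell were *Gadd45g* (−1.41, SE 0.42, adjusted p = 0.0591) and *Gadd45a* (−0.78, SE 0.27, adjusted p = 0.0857), stress response genes that are named here after their values were seen. *Gadd45g* was lost when any clone other than R98S clone 13 was left out (adjusted p = 0.115 to 0.148), without the filter (0.102) and with DESeq2 (0.117). *Gadd45a* was lost without R98S clone 11, R98S clone 35, WT clone 28 or WT clone 29 (0.192 to 0.238), with edgeR (0.112), without the trend (0.124) and with the regional shift removed (0.146). The calls of *Nthl1* and *Apex1* were kept under each alternative. That of *Ung* was lost without R98S clone 11 (adjusted p = 0.101), R98S clone 35 (0.110), WT clone 28 (0.140) or WT clone 29 (0.148). That of *Lig3* was lost when any clone other than R98S clone 13 was left out (0.1005 to 0.126), without the filter (0.104) and with the regional shift removed (0.107). The count of 6 became 2 without R98S clone 11, WT clone 28 or WT clone 29, and 3 without R98S clone 35.

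A list of 8 genes was drawn up around supply of the methyl donor and of the 2-oxoglutarate that TET enzymes use. Of these, *Ahcyl1* fell from 6892 ± 335 to 4517 ± 601 normalized reads (SD, n = 3 each; log2 difference −0.62, SE 0.12, limma adjusted p = 0.0164). *Ahcyl1* is listed as a relative of the hydrolase of S-adenosylhomocysteine, and a part of its own in that supply was not tested. Its R98S values were all below its WT values, and its call was kept under each alternative, but the difference was −0.27 (adjusted p = 0.0580) once the median change of its neighbours on the chromosome was subtracted. The other 7 did not pass the threshold, and the median of the list was 0.01. Among all genes tested, 23.9% passed. The count of 0 higher and 1 lower depended on the scaling, being 3 and 1 with scaling to the same upper quartile (*Mat2a*, *Ahcy* and *D2hgdh* higher) and 1 and 3 with the regional shift removed (*Mat2a* higher, *Idh1* and *Idh2* lower beside *Ahcyl1*). *Mat2a*, which makes the methyl donor S-adenosylmethionine, was also called higher with DESeq2 and without R98S clone 13, and all of these genes but *Ahcyl1* are named after their values were seen.

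**Figure D5:**
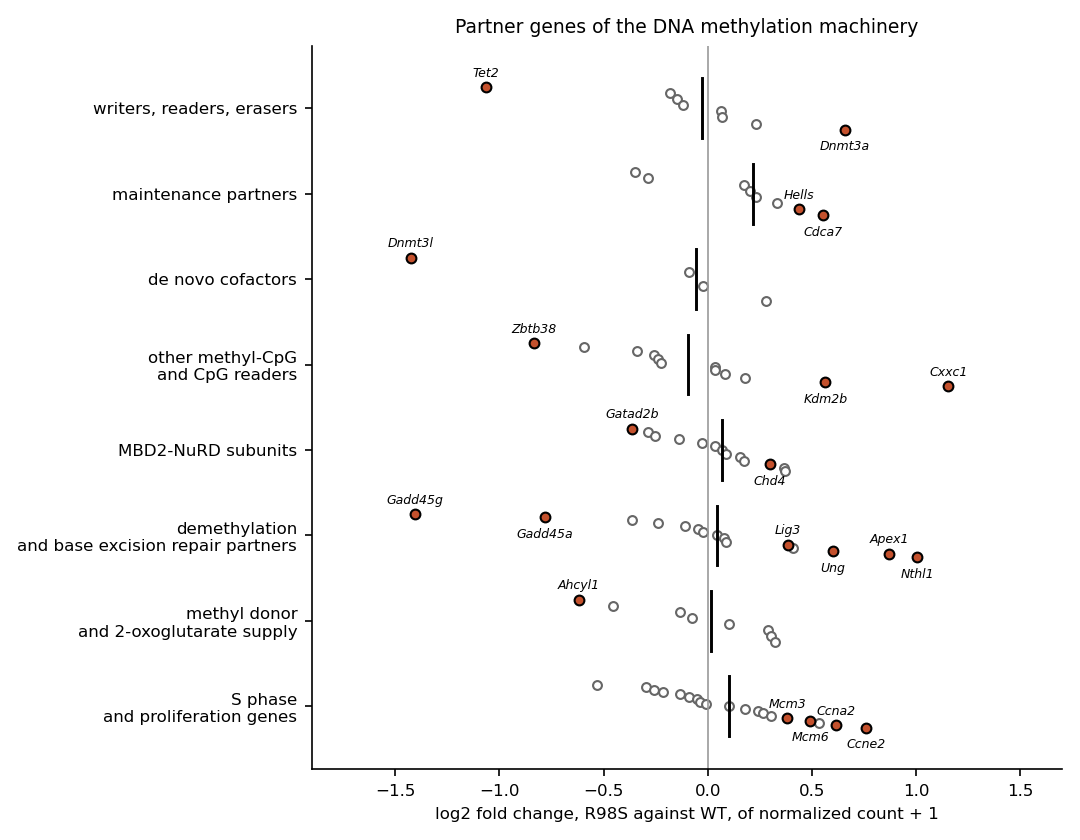
Log2 fold change of R98S against WT (horizontal axis) for every tested gene of the DNA methylation group and of the lists of partners, 1 point a gene, filled and named where the adjusted p was below 0.1, with the median of each list as a vertical bar. List medians lie between −0.10 and 0.22, with called genes on both sides in 4 of the 8 lists.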

How the data were processed

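RNA from 6 clones, lysed after cycloheximide, was sequenced from a stranded poly(A) library. The authors removed rRNA and tRNA reads with Bowtie2, aligned the rest to mm10 (GRCm38) with TopHat, kept primary alignments of mapping quality 10 or more and counted reads per gene. SAMtools, HTSeq and DESeq2 are also among the tools in the submitters' processing notes. The strand setting and annotation are not given in the sources used here, so overlapping antisense genes may share reads. The deposited values are a signal, read counts divided by a DESeq2 size factor per library. Each value above 0 was a whole multiple (relative tolerance 1e-06) of what 1 read is worth in its library, which gave back the reads.

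Log2(value + 1) was fitted with limma 3.58.1 (R 4.3.3, intensity trend, genotype only, two-sided) over 11550 genes with a mean of at least 10, with Benjamini-Hochberg adjustment and a threshold of 0.1, and was tested on simulated data. Ratios within libraries were compared with exact permutation tests. Alternatives were pseudocounts of 0.5 and 5, no filter, a minimum mean of 50, scaling to equal totals or upper quartiles, no trend, edgeR 4.0.16 and DESeq2 1.42.0 on recovered reads, each clone left out, a threshold of 0.05 and, chosen after seeing the data, subtraction of the median change of the 30 nearest genes and lengths from the longest coding transcript. Coordinates and exon lengths are from GENCODE release M21, and promoters from RefSeq (GRCm38.p6). The genes and lists were chosen with earlier results of these data known. The 9 genes are named whatever their values, and from each list up to 4 called genes with the smallest adjusted p. A few list genes that are not reported here were left out of their lists throughout.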

Additional observations from a re-analysis of the deposited data

How the results depend on the processing

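*Dnmt3a* and *Tet2* passed the threshold under each of 17 alternatives, and no other member did. The log2 difference ranged from 0.52 to 0.76 for *Dnmt3a* (limma, edgeR or DESeq2, adjusted p 0.00106 to 0.0892) and from −1.23 to −0.83 for *Tet2* (adjusted p 1.834e-05 to 0.0450). Of 136 comparisons of the 8 tested members under an alternative, 128 kept direction and side of the threshold, and the other 8 turned direction without a call: *Dnmt1* −0.095 without R98S clone 35 and −0.0019 without WT clone 28 (highest 0.19), *Tet3* −0.016 without R98S clone 11 and −0.029 without R98S clone 35 (highest 0.25), *Uhrf1* 0.019 without R98S clone 13, 0.073 without WT clone 36 (lowest −0.23) and 0.15 with the regional shift removed, and *Tdg* 0.078 with the regional shift removed. *Rpl10*, which was never called, turned to 0.033 with upper quartile scaling, 0.13 without R98S clone 13, 0.0075 without WT clone 28, 0.080 without WT clone 29 (lowest with a clone left out −0.29) and 0.039 with the regional shift removed. The cause was not tested. Of 457 such comparisons of the 27 other genes that are named as called, 90 lost the call and none turned direction.

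Over all genes, 2755 were called. Leaving out single clones gave 1322 to 3213 calls, with 1560 without R98S clone 11, 1322 without WT clone 28 and 1457 without WT clone 29. A threshold of 0.05 gave 1722. DESeq2 called 3105, of which 2664 were shared with limma, and edgeR 2746, of which 2608 were shared. Of the calls, 45.0% were higher in R98S, against 62.1% after scaling to the same upper quartile, which moved the median of all genes to 0.088. The differences of log2 ratios stayed within 1 SD between clones when a clone was left out or a pseudocount was added. No paired analysis was possible because no clone number occurs in both genotypes. *Tet1*, at 3 to 8 reads, was too low for a difference to be detectable at this depth.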

Other observations

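Genes that depend on DNA methylation for silencing were looked up as well, although methylation itself was not measured here. Of 12 germline genes that are silenced by promoter methylation in somatic cells, 9 had at most 3 reads in every library, and none passed the threshold with limma, edgeR or DESeq2. *Sycp1*, a synaptonemal complex gene, was the only one tested, at 213 ± 26.4 normalized reads in WT and 160.1 ± 35.8 in R98S clones (SD, n = 3 each; log2 difference −0.43, SE 0.22, limma adjusted p = 0.220), and it did not reach an unadjusted p of 0.05 either. *Tex101*, a germ cell surface protein gene named here after its values were seen, had 4.10, 3.22 and 3.00 normalized reads in WT and 10.3, 8.16 and 19.4 in R98S clones. It did not reach the filter. Without the filter, 10 germline genes were fitted and none was called.

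Of 22 imprinted genes, 10 had at most 3 reads in every library and 6 were tested, of which 1 fell and none rose. Among all genes tested, 13.1% were called lower and 10.7% higher. *Impact*, a regulator of GCN2 signalling, had 897, 952 and 627 normalized reads in WT and 492, 489 and 619.9 in R98S clones. WT clone 36 lay just above R98S clone 35, and the log2 difference was −0.61 (SE 0.19, limma adjusted p = 0.0633), a call that was lost without R98S clone 11 (0.174), R98S clone 13 (0.119), WT clone 28 (0.198) or WT clone 29 (0.197). *Grb10*, an adaptor of growth factor receptors, named here after its values were seen, had 54.3 normalized reads in WT clone 28 and 0 to 3.00 in every other clone, so that a single WT clone set its mean.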
